A study of Mus musculus with 33 samples.

Results

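Interferon-stimulated genes were followed as a list of 38 genes, chosen by name and found in full among the 32285 genes of the count matrices. By role the list holds 21 antiviral effectors, 4 nucleic acid sensors, 5 transcription factors and feedback genes, and 8 interferon-inducible GTPases. The question was at what level each cell type, tissue and biotin sort held these transcripts, as a sum and gene by gene.

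The data are single-cell RNA-seq from mouse tissues labelled with SAMENT, a niche labelling method of a study on bone metastasis that marks cells with biotin. Bone, brain, liver and lung were taken after overnight labelling with the substrate, dissociated, and the cells were parted by sorting for biotin. An intracardiac injection gave 32 samples in 8 groups of 4, with each tissue split into a biotin positive and a biotin negative group. A second experiment on bone used an injection that the labels abbreviate as IIA. It pooled 12 samples told apart by hashtags, both sorts of 6 injections. All groups shared the injection route of their experiment, the substrate labelling and the enzymatic dissociation with collagenase. The labels used here do not give the injected cells, the genotype, strain or age. Samples without injection or without substrate were not analysed here.

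Interferons are secreted proteins, and cells release those of type I and type III on sensing viral or misplaced nucleic acids. Type I and type III interferons signal through receptor-bound JAK kinases to transcription factors that bind a promoter element called the ISRE. Interferon gamma acts mainly at a second element, GAS. The target genes block viral entry and replication, sense nucleic acids, and attack pathogens inside vacuoles. Plasmacytoid dendritic cells are known for strong type I interferon production.

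Promoter sequences showed both elements directly. RefSeq windows from 250 bases before to 50 after the start (GRCm38.p6) were on hand for 30 of the 38 members. They were searched on both strands for the ISRE core, spelled TTTC, any 2 bases, TTTC, and for the GAS letters TTCNNNGAA, and matches could overlap. An ISRE core was found in 18 of the 30 members (60%), against 3.99% of 27025 genes with a window. GAS letters were found in 11 of the 30 (36.7%), against 9.55% of all genes. By role, ISRE cores were found in 10 of 18 antiviral effectors, 1 of 4 transcription factors and feedback genes, 1 of 1 sensor and 6 of 7 GTPases. The stretches below are those of members on which the results turn, with 20 bases on each side of the outermost matches and every matched base in capitals.
Isg15, chr4:156200855-156200916, minus strand: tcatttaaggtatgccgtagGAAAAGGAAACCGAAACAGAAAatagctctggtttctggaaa
Bst2, chr8:71537567-71537628, minus strand: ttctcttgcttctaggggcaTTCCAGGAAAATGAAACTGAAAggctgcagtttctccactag
Oas3, chr5:120777705-120777754, minus strand: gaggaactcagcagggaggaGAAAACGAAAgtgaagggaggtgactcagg
Trim30a, chr7:104465200-104465249, minus strand: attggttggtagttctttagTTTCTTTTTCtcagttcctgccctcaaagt
Gbp2, chr3:142620584-142620633, plus strand: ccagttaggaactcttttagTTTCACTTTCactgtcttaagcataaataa
Igtp, chr11:58199491-58199551, plus strand: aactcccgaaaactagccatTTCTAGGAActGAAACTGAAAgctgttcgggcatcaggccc
Irf1, chr11:53769904-53769952, plus strand: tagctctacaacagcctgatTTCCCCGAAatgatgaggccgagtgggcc
Isg15, a ubiquitin-like modifier, had 3 overlapping ISRE matches, and Bst2 had 2 overlapping ones, the first of which also overlapped a GAS match. Irf1, an interferon-induced transcription factor, had GAS letters and no ISRE core in its window. A match describes letters and was not tested as a binding site.

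After filtering, 55366 of 57065 intracardiac cell barcodes were kept, and 22362 of 22685 barcodes assigned to a hashtag in the IIA pool. Intracardiac samples held 94 to 3505 cells and 482617 to 44834665 UMIs (unique molecular identifiers, 1 per counted transcript), with a median of 2606 to 11313.5 UMIs per cell. IIA samples held 249 to 3480 cells and 2149784 to 27903856 UMIs. The 8 intracardiac samples of a replicate number listed 1 set of 8 multiplexing tags, which was the same set for numbers 3 and 4. Samples of the same number shared 0 barcodes over 112 pairs. Samples of different numbers shared 341 barcodes over 384 pairs of samples, at most 7 in a pair. A number was treated as a batch on these grounds, which the labels do not state. Levels are given as CPM, the UMIs of a gene per 1000000 UMIs of that sample and cell class, and summed levels as member UMIs per 10000 UMIs, in samples with at least 20 cells of the class. Fewer cells of a type and less RNA per cell cannot be told apart in values summed over all cells.

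Transcripts of interferons other than interferon gamma were nearly absent. Of 21 interferon ligand genes, 15 had 0 UMIs over all intracardiac cells and 16 had 0 UMIs in the IIA pool. Ifng, the gene of interferon gamma, had 2846 UMIs in the intracardiac cells and 140 in the IIA pool. It stood at 241.6 to 621 CPM in NK cells of 3 biotin negative lung samples (median 342) and at 117 to 295 CPM in T cells of 3 positive brain samples. The next ligand, Ifnb1, had 18 UMIs in the intracardiac cells.

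Cell classes differed widely in the summed level of the members, and Ifitm3 alone set much of it. Ifitm3, a membrane protein that hinders viral entry, made up a median of 62.3% of the member UMIs of neutrophils (44.1% to 81.8% over 32 samples). Its median share was 77.5% in monocytes and 4.26% in plasmacytoid dendritic cells. The sum over all 38 members was 38.8 ± 8.998 per 10000 UMIs in monocytes (SD, n = 26 samples) and 20.2 ± 7.12 in neutrophils (n = 32). Without Ifitm3 it was 9.34 ± 3.15 in monocytes and 7.87 ± 4.10 in neutrophils, which overlap within their spread. Sums below are therefore given without Ifitm3 unless stated otherwise.

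Without Ifitm3, plasmacytoid dendritic cell-like cells stood highest at 45.2 ± 6.11 per 10000 UMIs (n = 9). Endothelial-like cells followed with 19.4 ± 5.86 (n = 9) and macrophage-like cells with 17.2 ± 4.10 (n = 14), which overlap. Bst2 alone made up most of the plasmacytoid dendritic cell sum: without Ifitm3 and Bst2 these cells held 9.38 ± 2.86, below the means of endothelial-like (14.4 ± 3.82) and macrophage-like cells (14.0 ± 3.98), and the ranges of all 3 overlapped. With Bst2 counted, conventional dendritic cells (11.3), NK cells (9.27), T cells (9.04), microglia (8.23) and B cells (5.83) were lower. Alveolar macrophage-like cells held 5.10 ± 0.189 (n = 5) and granulocyte precursors 2.42, the lowest of these means. These are descriptions of rebuilt clusters, which were made without the 38 members among the clustering genes, and the order was not tested.

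**Figure D1:**
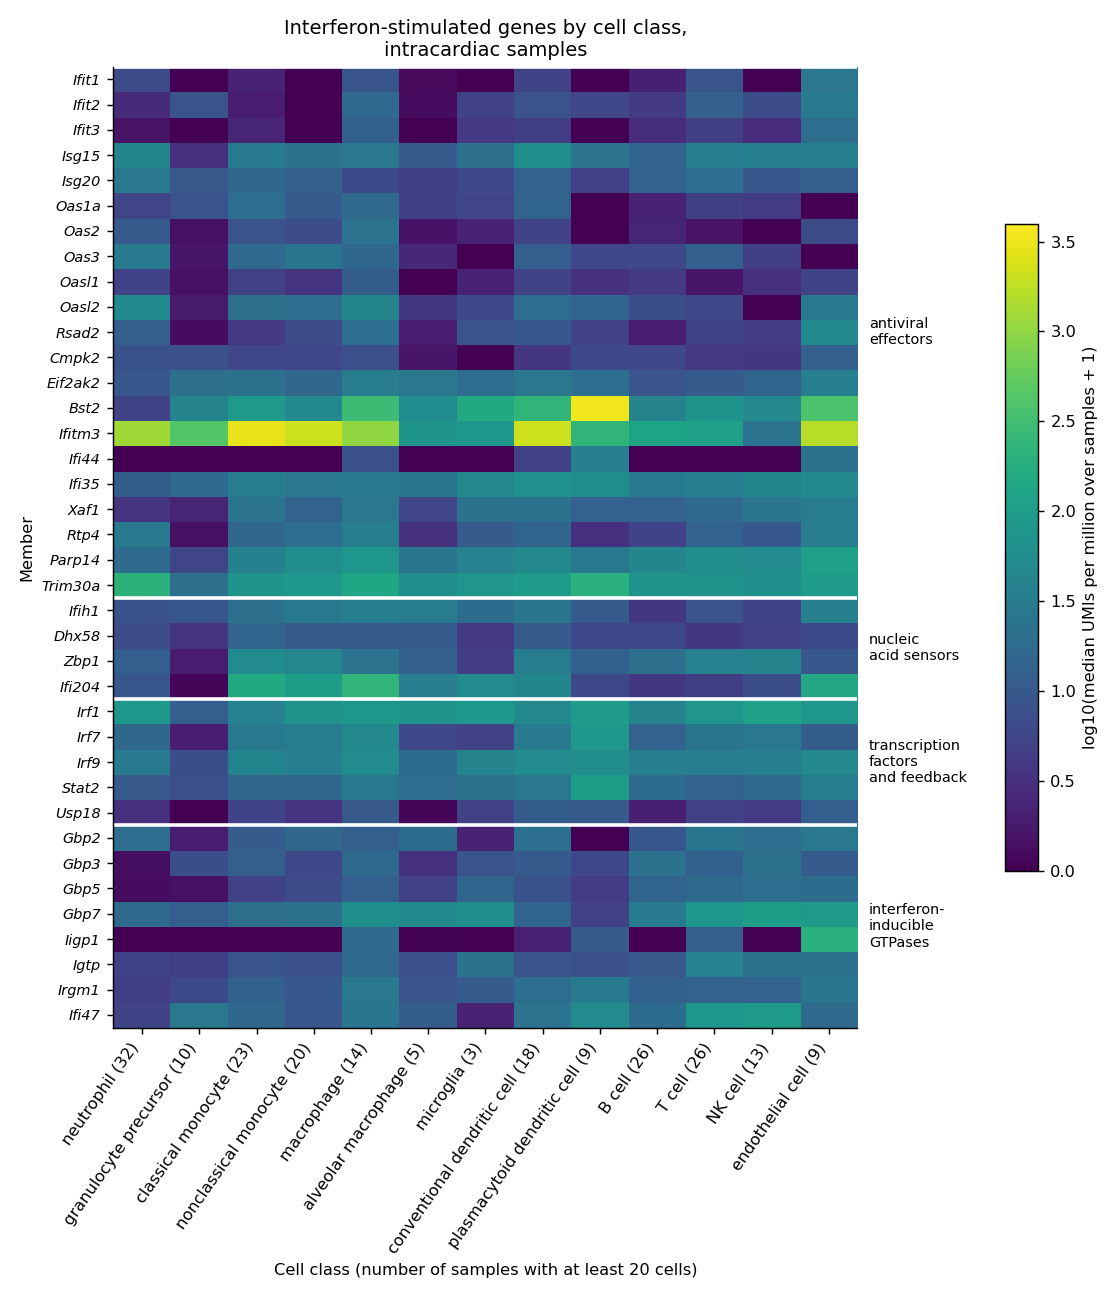
Median level of each of the 38 members (vertical axis, by role) in 13 cell classes of the intracardiac samples (horizontal axis, with the number of samples with at least 20 cells). Colour gives log10 of the median CPM over samples plus 1; Bst2 in plasmacytoid dendritic cells (3376 CPM) and Ifitm3 in classical monocytes (3001) are the brightest fields.

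Among antiviral effectors, Ifitm3 and Bst2 had the highest mean levels over all cells. Bst2 encodes tetherin, which holds budding virus at the cell surface, and had its highest class median in plasmacytoid dendritic cells. It ranged from 3122 to 4406 CPM there over 9 samples (median 3376). Its median was 385 in endothelial cells, 297 in macrophages and 4.48 in neutrophils. The Ifitm3 median was 3001 CPM in classical monocytes, 1225 in neutrophils, 73.1 in alveolar macrophages and 22.2 in NK cells.

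The sensors and GTPases had their highest medians in other classes than Ifitm3. Ifi204, of a family of DNA-binding sensors, had a median of 234 CPM in macrophages and 151 in classical monocytes, against 8.4 in neutrophils. Zbp1, a sensor of Z-form nucleic acids, had a median of 73.7 in plasma cells and 53.1 in classical monocytes. Gbp7, a guanylate-binding protein, and Ifi47, an immunity-related GTPase, were highest in NK cells with medians of 105 and 95.0 CPM. Iigp1, a GTPase of the defence against vacuolar pathogens, had a median of 198 in endothelial cells (10.4 to 375 over 9 samples) and of 39.1 or less in every other class. Irf1 had its highest median in NK cells (114 CPM).

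Neutrophils, the only class with at least 20 cells in all 32 intracardiac samples, fell into 6 clusters that held the members at graded levels. Positive brain sample 2 had the fewest neutrophils, 21 cells. The cluster led by Camp and Fcnb, genes of early neutrophil granules, held 1.52 ± 0.285 per 10000 UMIs without Ifitm3 (n = 11 samples). The cluster led by Ltf and Ngp held 3.68 ± 1.74 (n = 16). The cluster led by Stfa3 and Cstdc5 held 4.30 ± 1.07 (n = 13), and that led by Retnlg and Prok2 held 7.37 ± 2.53 (n = 24). Clusters with chemokine and cytokine genes stood above these. The cluster led by G0s2 and Wfdc17 held 11.2 ± 4.59 (n = 30), and that led by Ccrl2 and Il1b held 13.6 ± 4.05 (n = 21). Median UMIs per cell fell along the same order, from 21976 in the Camp and Fcnb cluster to 2710 in the Ccrl2 and Il1b cluster. The part of depth in these levels was not tested.

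**Figure D2:**
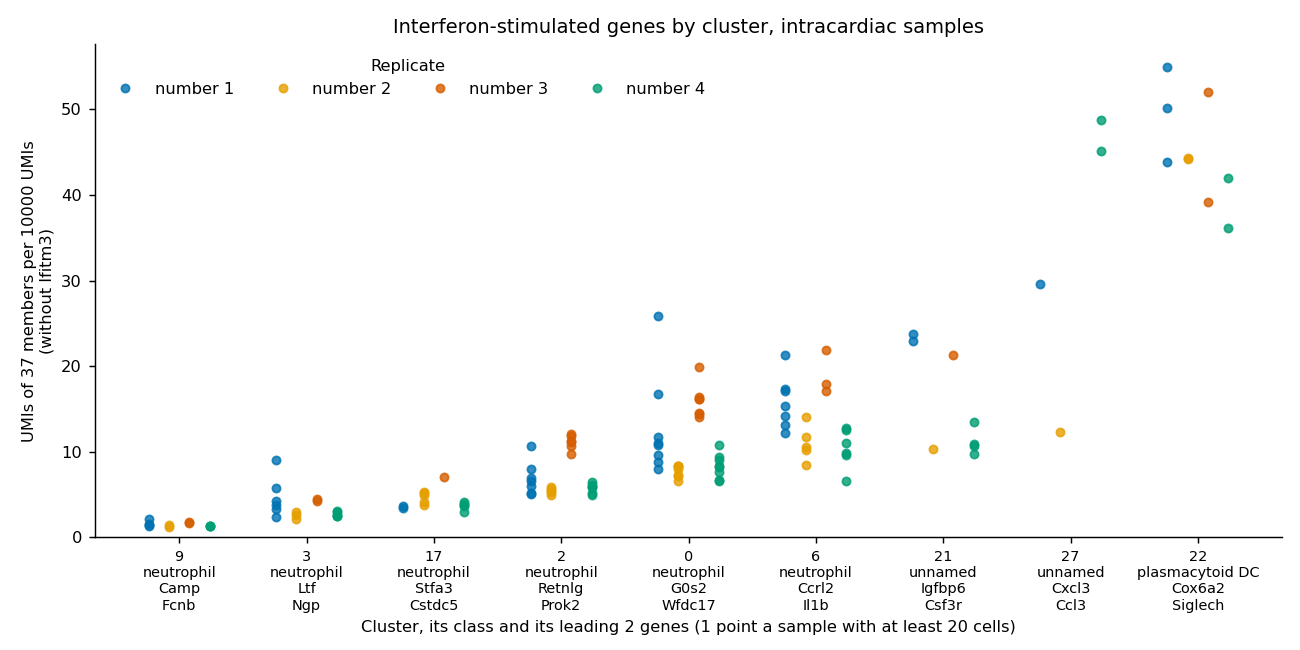
Summed level of 37 members without Ifitm3 per 10000 UMIs (vertical axis) in selected intracardiac clusters (horizontal axis, with cluster number, class and 2 leading genes). Each point is 1 sample with at least 20 cells; levels step up from 1.52 in the Camp and Fcnb cluster to 13.6 in the Ccrl2 and Il1b cluster, and the unnamed Cxcl3 and Ccl3 cluster spreads from 12.3 to 48.7.

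An unnamed cluster led by Cxcl3 and Ccl3 held the largest share of cells rich in members. Of its 426 cells, 90.4% came from lung samples, and 182 (42.7%) from biotin negative lung sample 4 alone. Its summed level without Ifitm3 was 12.3 per 10000 UMIs in biotin negative lung sample 2, 29.6 and 45.1 in biotin positive lung samples 1 and 4, and 48.7 in biotin negative lung sample 4. The highest of the 4 samples was about level with the mean of the plasmacytoid dendritic cells, and the lowest was within the range of neutrophil samples. Over the pooled cells of the cluster, weighted to that sample, Isg15 stood at 604 CPM, Rsad2, the gene of viperin, at 594 and Ifit1 at 191. When every cell was thinned to 1000 UMIs, 280 of 54191 intracardiac cells held at least 10 UMIs of the 37 members without Ifitm3. The highest shares were those of this cluster, with 50 of 414 cells (12.1%), and of plasmacytoid dendritic cells, with 47 of 687 (6.84%), and every other cluster had 2.85% or less. Bst2 was among the 37 members and stood at 3122 to 4406 CPM in plasmacytoid dendritic cells. Shares without Bst2 were not counted here.

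The cells were also clustered with the members among the clustering genes. In the intracardiac cells 1 cluster of 514 cells was led by Rsad2, Cxcl3 and Ccl3, with 5 members among its 100 leading genes, and 412 of its cells were unnamed in the other clustering. In the IIA pool 1 cluster held 120 cells, all of them neutrophils by the other clustering, and 18 members were among its 100 leading genes, headed by Rsad2, Ifit1 and Isg15. Of these 120 cells 116 came from negative samples, which is 1.13% of the negative and 0.445% of the positive neutrophils. The members took part in this clustering, so these values are descriptions only.

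The first comparison asked whether cells tagged with biotin differed from untagged cells of the same tissue. Over all cells of a sample, edgeR's quasi-likelihood test with Benjamini-Hochberg adjustment passed 0 of 37 members tested in bone, where it passed 0% of 12533 genes. It passed 0 of 38 in brain (3.06% of 11064 genes), 0 of 38 in liver (0% of 11854 genes) and 1 of 38 in lung (18.3% of 12331 genes, 11.5% higher and 6.8% lower). At an unadjusted p below 0.05 the counts were 4, 4, 2 and 5 members, against 7.84%, 21%, 13.3% and 35.1% of all genes tested. DESeq2 called 1, 4, 0 and 2 members, against 0.423%, 11.1%, 3.64% and 25.1% of genes. The test of whether the sort difference itself differed between tissues passed 0 of 38 members, against 1.15% of 13963 genes. It gave 1 member an unadjusted p below 0.05, against 13% of genes, and DESeq2 called 0 (3.92% of genes).

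Ifih1, the MDA5 sensor of double-stranded RNA, was the member that passed in lung. Its levels were 11.9, 9.77, 19.9 and 12.5 CPM in biotin negative lung samples 1 to 4. In the positive samples they were 27.2, 29.4, 24.4 and 25.4. Every positive lung sample stood above every negative one. The log2 fold change was 0.75 (SE 0.17, edgeR adjusted p = 0.0201), and the adjusted p rose to 0.058 without negative sample 1 and to 0.059 without negative sample 4. Alveolar macrophages, in which Ifih1 had a median of 32.5 CPM, made up 14.7% to 81.2% of the positive and 0.0325% to 0.873% of the negative lung samples, and their part in the difference was not tested.

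With the replicate number as a block, 5 of 38 members passed in lung (20.8% of genes, 12.5% higher and 8.29% lower). Ifih1 rose by 0.77 on the log2 scale. Oas1a (-0.76), Ifi47 (-0.90), Igtp (-1.03) and Zbp1 (-0.87) were lower in positive samples. The blocked fit passed 1 of 38 members in brain (6.89% of genes, 5.58% higher and 1.31% lower), Ifitm3 at -1.10.

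Ifitm3 was lower in the positive than in the negative sample of the same tissue and number in 16 of 16 pairs over all cells. Biotin negative bone samples 1 to 4 held 1724, 989, 1578 and 1188.5 CPM and the positive ones 853, 692, 786 and 911. In brain the negative samples held 1122, 1248, 2288 and 1270 and the positive ones 839, 728, 983 and 735. The groups did not overlap in either tissue. The log2 fold change in bone was -0.89 (SE 0.24, edgeR adjusted p = 0.615) and in brain -1.14 (SE 0.27, adjusted p = 0.0574). It was -0.65 (adjusted p = 0.342) for liver and -1.19 (adjusted p = 0.135) for lung. None of these passed without the block, with which Ifitm3 passed in brain, as given above. Classical monocytes, the class with the highest Ifitm3 median, were also a smaller share of the positive sample in 16 of 16 pairs. In brain they were 7.04% to 19.4% of negative and 0.593% to 3.44% of positive samples. Their part in the difference was not tested.

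Zbp1 was the other member lower in the positive sample in all 16 pairs. Its log2 fold changes were -1.05 in bone, -0.84 in brain, -0.59 in liver and -0.79 for lung. None passed the edgeR test without a block (adjusted p = 0.615, 0.320, 0.475 and 0.172). With the replicate number as a block Zbp1 passed in lung, as given above, and in no other tissue.

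Iigp1, Eif2ak2, the kinase PKR, and Ifih1 were each higher in the positive sample in 14 of 16 pairs, the most of any member. Over the 38 members the median was 9 of 16. In liver Iigp1 stood at 2.02, 11.98, 3.93 and 2.98 CPM in negative samples and at 24.1, 13.5, 35.0 and 12.4 in positive ones. Every positive liver sample stood above every negative one. The log2 fold change was 1.82 in liver (SE 0.59, edgeR adjusted p = 0.251) and 1.81 in brain (SE 0.54, adjusted p = 0.104), and neither passed. Endothelial cells, the class with the highest Iigp1 median, were 2.03% to 21.5% of the positive and 0.446% to 3.81% of the negative liver samples. Their part in this difference was not tested.

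Within neutrophils, the sort comparison passed 0 of 34 members in each tissue, where it passed 0% of 8550 genes. At an unadjusted p below 0.05 3 of 34 members were counted in liver neutrophils, against 181 of 8550 genes. Bone, brain and lung neutrophils had 0 members there, against 18, 86 and 96 genes. DESeq2 called 0 members in each. The smallest p was that of Igtp, an immunity-related GTPase, in liver. It held 4.15, 4.07, 4.53 and 4.20 CPM in the negative and 10.0, 11.7, 8.87 and 5.81 in the positive samples. The log2 fold change was 1.01 (SE 0.34, edgeR unadjusted p = 0.00593, adjusted p = 1.00). In lung neutrophils Igtp went the other way, with 6.56, 4.30, 5.37 and 4.71 in negative and 1.69, 2.23, 3.94 and 3.41 in positive samples, and it did not pass either. Such levels rest on very few Igtp UMIs in the smaller samples. Positive liver sample 4 held 52 neutrophils and positive lung sample 2 held 106, with medians of 2795.5 and 3705 UMIs per cell.

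The summed level of neutrophils without Ifitm3 was higher in the positive sample in 8 of 16 pairs of the same tissue and number. The difference, positive minus negative, ran from -2.82 to 2.43 per 10000 UMIs with a median of -0.0232. The sum over all 38 members was higher in the positive sample in 3 of 16 pairs (median difference -1.19), and Ifitm3 alone was lower there in 12 of 16.

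**Figure D3:**
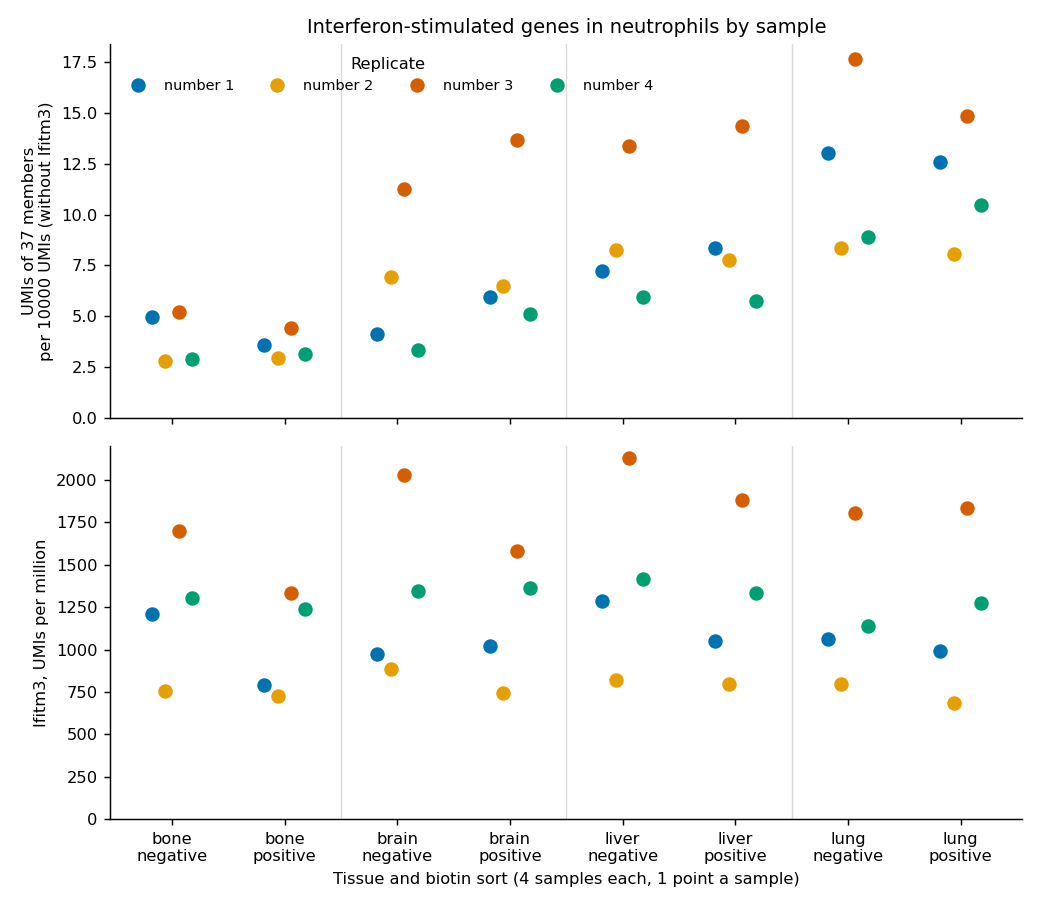
Neutrophils of the 32 intracardiac samples by tissue and biotin sort (horizontal axis); points are samples, coloured by replicate number. The upper panel gives UMIs of 37 members per 10000 UMIs without Ifitm3 and the lower panel Ifitm3 in CPM; number 3 is the highest sample of all 8 groups in both panels, and the upper panel climbs from bone to lung.

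Monocytes, B cells and T cells gave no called member in the intracardiac sort comparisons. Monocytes passed 0 of 37 members in bone (0% of 10473 genes) and 0 of 37 in lung (0.00955%). Their largest nominal difference was that of Rsad2 in lung, with 15.03, 2.27, 3.79 and 1.30 CPM in negative samples and 55.1, 10.8 and 5.20 in the 3 positive samples with enough cells. The groups overlapped, and the log2 fold change was 2.22 (SE 0.78, edgeR adjusted p = 0.486). B cells passed 0 of 26 members in bone (0% of 8096 genes), 0 of 26 in liver (0.0124%) and 0 of 26 in lung (0%). T cells passed 0 of 18 in brain and 0 of 18 in lung (0% of 5921 genes each). At an unadjusted p below 0.05 these 7 comparisons held 0, 3, 3, 0, 2, 0 and 2 members in the order given. All genes at that threshold were 461, 807, 494, 260, 429, 249 and 237 in the same order. DESeq2 called 0 members in each. Monocytes of brain and liver, B cells of brain and T cells of bone and liver had too few samples with 20 cells on a side and were not tested. Macrophages of brain (3 negative and 4 positive samples) and granulocyte precursors of bone (3 and 4) had enough samples but were not tested here.

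The second comparison asked whether biotin negative cells of a class differed between the 4 tissues. In neutrophils 10 of 34 members tested (29.4%) passed the edgeR test, against 35.3% of 8550 genes, so the members' share was below the background. Without number 4 the count was 4 members (1420 of 8503 genes) and without number 2 it was 6 (2285 of 8297 genes). The 10 members over all numbers were 6 of 20 antiviral effectors, 2 of 5 transcription factors and feedback genes, 2 of 5 GTPases and 0 of 4 sensors. The smallest adjusted p-values were those of Irf1 (2.3e-04), Isg20 (9.4e-04), Oasl2 (0.00162) and Gbp2 (0.00305). With the replicate number as a block 21 of 34 passed, against 50.6% of genes.

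The levels are given here by tissue. Irf1 held 32.4, 27.1, 24.0 and 30.2 CPM in bone samples 1 to 4 and 23.7, 93.1, 80.6 and 36.8 in brain. In liver it held 99.01, 111, 89.4 and 90.7, and in lung 98.8, 132, 59.0 and 126. All liver and lung samples stood above all bone samples, and brain overlapped both. Isg15 held 42.7, 6.58, 27.9 and 6.23 in bone and 32.4, 24.0, 140 and 14.5 in brain. In liver it held 67.4, 39.3, 161 and 23.8, and in lung 340, 51.2, 196 and 68.4. Bone overlapped brain and liver for Isg15, and within each number the lung value was the highest of the 4 tissues.

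Trim30a, of a family of ubiquitin ligases, held 62.3, 60.1, 105 and 61.1 in bone and 218, 251, 338 and 235 in lung, with no overlap. Oasl2, an oligoadenylate synthetase-like protein, held 19.9, 9.53, 29.3 and 11.4 in bone and 99.5, 71.4, 161 and 75.1 in lung. Cmpk2, a mitochondrial nucleotide kinase, went the other way. It held 21.2, 17.7, 16.0 and 14.4 in bone and 1.82, 1.75, 8.05 and 4.71 in lung.

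**Figure D4:**
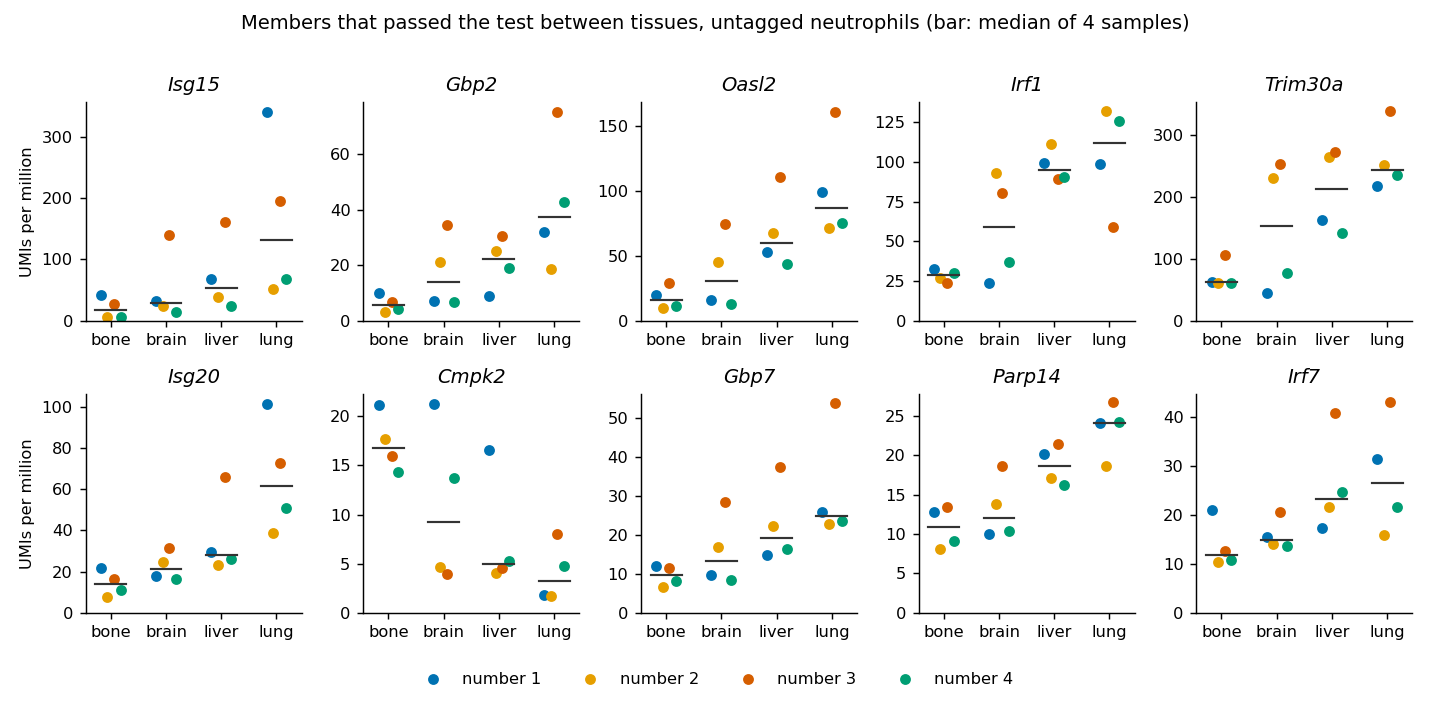
Members that passed the test between tissues in biotin negative neutrophils, 1 panel each, with CPM (vertical axis, from 0, scaled per panel) against tissue (horizontal axis). Points are the 4 samples of a tissue, coloured by replicate number, and the bar is their median; bone is low for all but Cmpk2, which is high there.

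A contrast of bone with the mean of the other tissues, added after the data were seen, passed 10 of 34 members, 9 lower and 1 higher in bone. The background was 38.3% of genes, 18.6% lower and 19.7% higher. The members' median log2 fold change was -0.66 against 0.02 for all genes tested. The lower members were Isg15 (-2.08, SE 0.72), Gbp2 (-2.04, SE 0.49), Oasl2 (-1.83, SE 0.43), Irf1 (-1.59, SE 0.27), Trim30a (-1.50, SE 0.41), Isg20 (-1.41, SE 0.36), Gbp7 (-1.15, SE 0.34), Parp14 (-0.70, SE 0.23) and Irf7 (-0.70, SE 0.27). Cmpk2 was higher (1.38, SE 0.36). With the block 20 members passed (53.3% of genes, 28% higher and 25.3% lower), 1 higher and 19 lower. Without number 2 only 4 members did, a count given without its share of all genes.

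The neutrophil clusters took different shares of the tissues. The Camp and Fcnb cluster and the Ltf and Ngp cluster were 15.7% and 34.2% of biotin negative bone neutrophils and 0.103% and 0.827% of those of lung. The G0s2 and Wfdc17 cluster was 3.89% of them in bone, against 29.7% (brain), 46.4% (liver) and 55.2% (lung), and the Ccrl2 and Il1b cluster 0.965% in bone and 36.8% in lung. Within the G0s2 and Wfdc17 cluster alone, bone against the other tissues passed 0 of 18 members (0.0523% of 3825 genes, 1 member at an unadjusted p below 0.05). Within the Retnlg and Prok2 cluster alone it passed 0 of 25 (1.45% of 5104 genes, 2 members at an unadjusted p below 0.05). The members' median log2 difference was 0.06 and 0.29 there. The summed level without Ifitm3 in the G0s2 and Wfdc17 cluster was 10.8, 7.22, 14.5 and 6.73 per 10000 UMIs in negative bone samples 1 to 4. It was 16.7, 8.29, 16.2 and 7.64 in brain and 11.1, 7.95, 19.9 and 9.01 in lung, so bone was below both within each number. Liver, at 8.83, 8.40, 14.1 and 8.28, was on either side of bone. Fewer genes and fewer cells entered these fits, and their share of all genes at an unadjusted p below 0.05 is not given here.

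Of the other genes of the interferon pathway, 21 of 55 tested passed the bone contrast in neutrophils, 3 higher and 18 lower, against 38.3% of all genes (19.7% higher and 18.6% lower). By list these were 3 of 6 receptors, 4 of 9 JAK-STAT genes and their inhibitors, 6 of 11 genes of nucleic acid sensing and 8 of 29 other interferon-stimulated genes. The largest were Socs3, an inhibitor of JAK signalling (-2.29), Ifitm1 (-1.95), Nlrc5 (-1.65) and Trim30d (-1.58).

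Monocytes passed 0 of 37 members between tissues, against 0.955% of 10473 genes. For bone against the other tissues they passed 0 of 37 (0.687% of genes). There 0 members had an unadjusted p below 0.05, against 772 genes. B cells passed 0 of 26 (0% of 8096 genes) and T cells 0 of 18 (0.152% of 5921 genes). Between tissues each of these 3 classes had 1 member at an unadjusted p below 0.05. All genes at that threshold were 978 in monocytes, 293 in B cells and 348 in T cells. DESeq2 called 0 members. The block passed 2 monocyte members, Ifitm3 and Ifi204 (5.7% of genes), and 1 in T cells, Ifi47 (2.35% of genes). The summed level of biotin negative monocytes without Ifitm3 had a median of 7.96 per 10000 UMIs in bone and 9.47 in lung. Brain (8.51) and liver (8.27) lay between, and the ranges of all 4 overlapped.

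Members also varied with the replicate number. The test between numbers, with group as a covariate, was added after the data were seen. It took the samples of a number as replicates, so its p-values measure the spread between samples within a number. They do not measure the spread between batches. In neutrophils 25 of 34 members (73.5%) passed, against 36.5% of 8550 genes. They were 17 of 20 antiviral effectors, 2 of 4 sensors, 3 of 5 transcription factors and feedback genes and 3 of 5 GTPases. Without number 3 the count was 13, and without any other number 23 or 24. These counts are given without the share of all genes in their fits, so they have no background.

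Zbp1 had the smallest adjusted p (5.8e-11 by edgeR). Its medians over the 8 neutrophil samples of numbers 1 to 4 were 12.1, 10.2, 39.5 and 6.95 CPM. The Ifitm3 medians were 1036, 778, 1822 and 1321. For Isg15 they were 75.9, 33.9, 153 and 22.1, and for Rtp4, a receptor-transporting protein, 21.6, 28.4, 106 and 12.8. Number 3 had the highest neutrophil median for 26 of the 38 members, number 1 for 7, number 2 for 3 and number 4 for 1, and Ifi44 was tied with a median of 0 in every number. The summed level without Ifitm3 had medians of 6.58, 7.33, 13.5 and 5.43 per 10000 UMIs.

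The step between numbers was also present within single neutrophil clusters. In the G0s2 and Wfdc17 cluster the summed level without Ifitm3 was 14.1 to 19.9 in the 7 samples of number 3 and 6.64 to 8.40 in the 7 samples of number 2. It was 6.55 to 10.8 in the 8 samples of number 4 and 7.99 to 25.9 in the 8 of number 1. The ranges of numbers 2 and 3 did not overlap, and neither did those of 3 and 4. In that cluster alone 17 of 18 members passed between numbers (47.5% of 3825 genes), and in the Retnlg and Prok2 cluster 19 of 25 (28.1% of 5104 genes).

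Cells were also counted at equal depth. After thinning to 1000 UMIs, the share of neutrophils with at least 5 member UMIs had medians of 11.1%, 4.97%, 25.6% and 7.11% in numbers 1 to 4. Without thinning they were 76.2%, 62.2%, 90.5% and 76.2%. Without Ifitm3 the thinned shares were 4.00%, 0.966%, 5.71% and 0.820%. Thinning left out 260 of 19639 neutrophils, from 34 to 104 per number.

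Monocytes varied along the number as well, in another order. There 33 of 37 members (89.2%) passed, against 27.7% of 10473 genes. Leaving out 1 number gave 25 to 30 members, given without the share of all genes in those fits. Oas1a, an oligoadenylate synthetase, had medians of 21.2, 7.74, 29.9 and 7.50 CPM in numbers 1 to 4. Bst2 had 98.7, 55.5, 89.8 and 52.5, and Irf7, the regulator of type I interferon genes, had 48.5, 22.6, 32.6 and 13.4. Number 3 had the highest monocyte median for 22 members and number 1 for 16, while number 4 had the lowest for 25, number 2 for 10 and number 1 for 1, and Ifi44 and Iigp1 were tied with a median of 0 in numbers 2, 3 and 4. The medians of the sum without Ifitm3 were 11.1, 6.92, 11.6 and 5.77 per 10000 UMIs in monocytes, 6.06, 5.42, 5.47 and 4.94 in B cells and 8.32, 7.53, 10.8 and 8.55 in T cells.

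Other genes of the pathway passed this test too, most of them from the list of other interferon-stimulated genes. In neutrophils 33 of 55 other pathway genes tested passed, against 36.5% of all genes, and in monocytes 43 of 69, against 27.7%. Among other interferon-stimulated genes these were 23 of 29 and 31 of 41. Whether a number stands for 1 mouse, 1 preparation or 1 library pool is not stated in the labels, so these cannot be told apart.

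The third comparison was that of the 6 positive and 6 negative IIA bone samples. Over all cells 15 of 38 members (39.5%) were lower in positive samples and 0 were higher by edgeR. Of all 12625 genes 50.2% passed, 23.2% lower and 27% higher. The members' median log2 fold change was -0.54 against 0.08 for all genes. Without positive sample 2 it was -0.99 and 19 members passed, against 6854 of 12841 genes. Without negative sample 2 it was -0.40 and 12 members passed, against 5830 of 12672 genes. Those were the extremes over all samples left out in turn. The 15 were 10 of 21 antiviral effectors, 4 of 5 transcription factors and feedback genes, 1 of 4 sensors and 0 of 8 GTPases. With the injection number as a block 23 passed (49.1% of genes, 24.7% higher and 24.4% lower), 22 lower and 1, Ifi47, higher by 0.35.

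Oas3, the largest of the oligoadenylate synthetases, held 53.8, 87.0, 63.9, 46.3, 73.2 and 45.4 CPM in negative samples 1 to 6. In positive samples it held 19.5, 22.5, 16.4, 18.6, 8.46 and 16.8, with no overlap. The log2 fold change was -2.12 (SE 0.24, edgeR adjusted p = 2.8e-05). Cmpk2 held 28.9, 31.5, 30.4, 25.7, 33.1 and 24.3 in negative and 12.2, 6.85, 8.49, 15.4, 9.89 and 11.3 in positive samples, and differed by -1.71 (SE 0.16, adjusted p = 9.0e-06). The groups did not overlap for Cmpk2 either.

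Other members that fell were Oas2 (-1.91), Usp18, which removes ISG15 and dampens receptor signalling (-1.90), Rtp4 (-1.49), Oasl2 (-1.46), Irf7 (-1.39), Ifitm3 (-1.24), Irf9 (-1.18), Xaf1 (-1.08), Trim30a (-1.06) and Dhx58 (-1.04). Rtp4, Irf7 and Xaf1 no longer passed without negative sample 2. Gbp2 spread widest among the GTPases and did not pass. It held 6.23 to 36.6 in negative samples, and in positive samples 76.4 and 59.3 for injections 2 and 3 but 3.26 to 8.78 for the others.

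The same comparison of the other pathway genes passed 38 of 70 tested, 5 higher and 33 lower, against 50.2% of all genes (27% higher and 23.2% lower). The largest were Cxcl9, a chemokine gene of the interferon gamma response (3.79, SE 1.31), Ms4a4c (-2.98), Gm4951 (2.44) and Slfn1 (-2.36). Cxcl9 held 33.1, 326, 214, 1.40, 9.60 and 5.22 CPM in positive samples 1 to 6 and 1.44, 27.4, 5.48, 2.61, 0.83 and 0.65 in negative ones. Positive samples 2 and 3 were far above the rest.

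The cell classes moved with the sort in these samples. Neutrophils were 50.6% to 66.0% of the cells of negative and 9.69% to 36.5% of those of positive samples. Granulocyte precursors were 3.30% to 47.5% and macrophages 4.39% to 51.8% of positive samples, against 0.706% to 2.63% and 0.0325% to 2.23% of negative ones. Unnamed cells were 17.7% to 32.3% of positive and 2.47% to 10.8% of negative samples. Within neutrophils 0 of 32 members passed (3.98% of 8593 genes), with 2 at an unadjusted p below 0.05 (1388 genes) and 0 by DESeq2 (469 genes). Within monocytes 0 of 34 passed (0.0542% of 9232 genes), with 5 at an unadjusted p below 0.05 (873 genes) and 0 by DESeq2 (49 genes). The members' median log2 fold change in monocytes was -0.72 (3 of 34 above 0) against -0.02 for all genes. With the injection number as a block it was -0.39 (6 of 34 above 0), with 0 members passing. The sum over all members was 31.4 to 52.0 per 10000 UMIs in 6 negative and 24.6 to 30.2 in 3 positive monocyte samples, with no overlap. Without Ifitm3 it was 9.88 to 21.4 in negative and 7.40 to 12.4 in positive samples, which overlapped. Oas3 in neutrophils held 83.9, 129, 88.7, 65.9, 109 and 65.8 in negative and 80.0, 153, 64.1, 122, 78.7 and 74.9 in positive samples, which overlapped. Macrophages had 20 cells in 5 positive and 1 negative sample and were not tested. Granulocyte precursors had at least 20 cells in 5 samples of each sort, which was enough, but were not tested here.

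**Figure D5:**
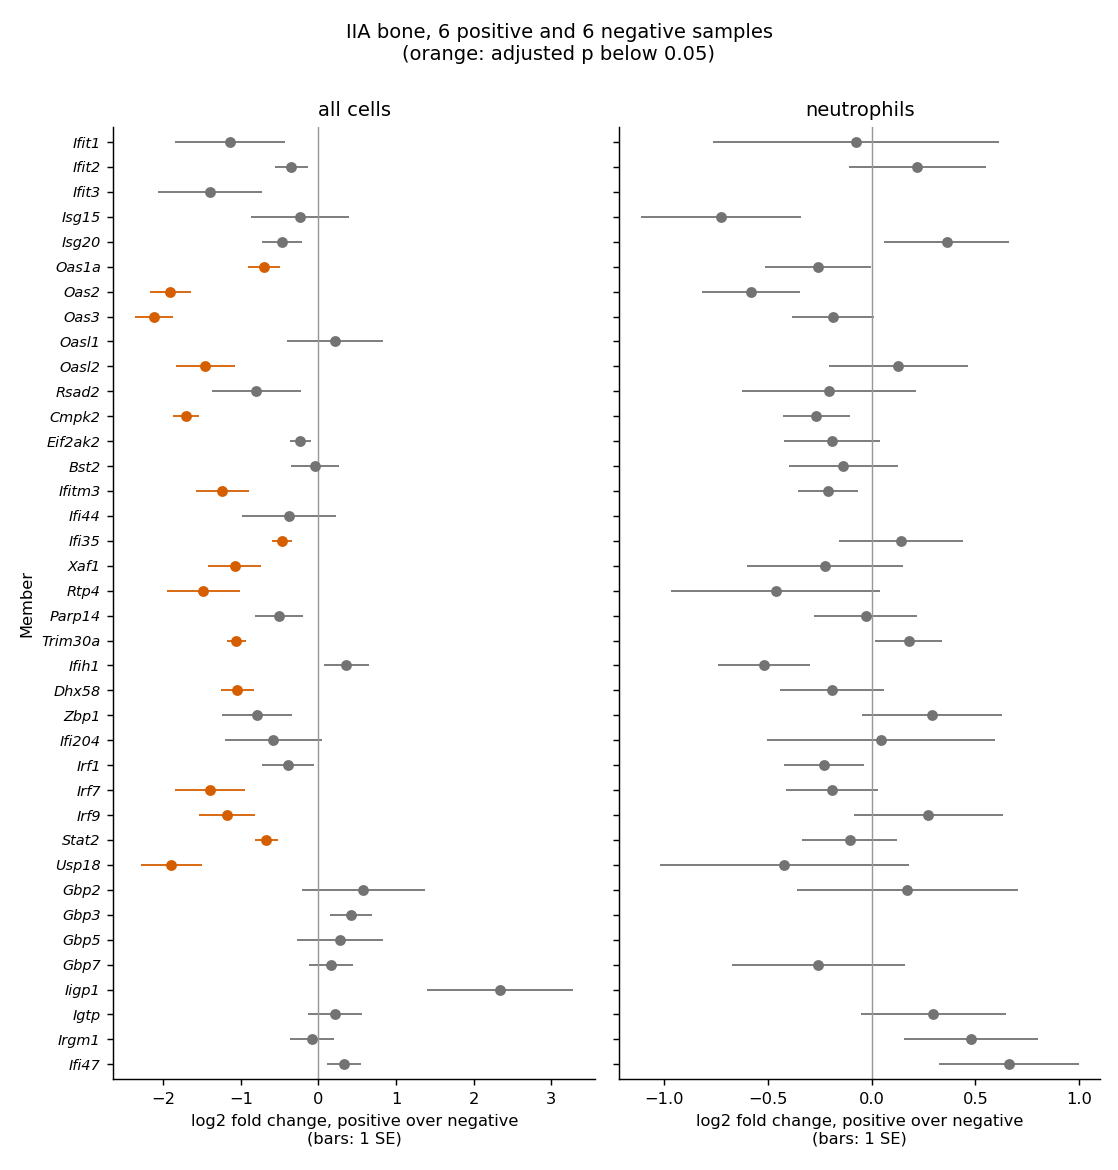
Log2 fold change, positive over negative (horizontal axis), of each member (vertical axis) in IIA bone over all cells and within neutrophils, each panel with its own scale; points are edgeR estimates, bars 1 SE, and orange marks an adjusted p below 0.05. Over all cells 15 members are marked, all below 0, and within neutrophils 0 are.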

How the data were processed

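Gene counts were deposited by the authors as UMI count matrices, unnormalized. Cell Ranger, Seurat and mm10 are named per the submitters' processing notes, and cellranger 6.1.2 and 7.1.0 per the file headers. The hashtag counts of the IIA pool were deposited in the same way and assigned here: at least 10 counts, and 3 times the second tag. Levels of Ifit3, Oas1a, Ifi204 and Trim30a are uncertain, since they have near-identical copies and the treatment of shared reads is not given in the sources used here.

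Cells with at least 500 UMIs, 200 genes and at most 15% mitochondrial UMIs were kept. Doublets were not removed; leaving out the 5% highest Scrublet scores was an alternative. Cells were clustered on 2000 variable genes without the 38 members, with 30 principal components, 15 neighbours and Leiden resolution 1 (scanpy 1.11.5, igraph 0.11.9). Clusters were named from 24 marker lists of 237 genes, so classes are rebuilt and "-like". UMIs were summed per sample and class with at least 20 cells, in at least 3 samples a side. They were tested with edgeR 4.0.16 (quasi-likelihood, TMM scaling, Benjamini-Hochberg adjustment over all genes tested, threshold 0.05). DESeq2 1.42.0, other scaling, no filter, a replicate block and leaving out each sample were alternatives. A replicate number was treated as a batch because its 8 samples list 1 tag set per the file headers and share no barcodes; numbers 3 and 4 list the same set, and the labels do not state it. Deviations from group means in neutrophils had a median r of 0.231 over 112 pairs of samples of the same number and -0.0769 over 336 of different numbers.

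The members and lists were chosen with earlier results of these data known. All members were counted by role. Named in full were at most 12 that passed, by size of change, or the 3 of smallest p, and in levels the 2 highest of each role. Cell counts are not replicates, and the labels do not say that samples came from separate animals, so p-values measure only the spread between samples. On simulated counts for the 4 comparisons over all cells, 57% to 76% of genes changed 4-fold and 4% to 13% of genes changed 2-fold were recovered.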

Additional observations from a re-analysis of the deposited data

Results flagged for a closer look

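In 12 of 122 groups of 4 to 6 samples tested, 1 sample stood far from the others; chance gives about 1 in 20. Of the 12 values, 7 are from samples of replicate number 3. In neutrophils of number 3 these were the sum over all 38 members in biotin negative brain (31.5 per 10000 UMIs) and the sum without Ifitm3 in positive brain (13.7). Single members were Trim30a in negative bone (105.5 CPM), Isg15 in negative brain (139.6), Isg20 in negative liver (65.6) and Gbp7 in negative lung (53.7). In monocytes of number 3 it was the sum over all members in negative liver (54.9 per 10000 UMIs).

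The others were the sum without Ifitm3 over all cells of negative lung sample 2 (8.17 per 10000 UMIs) and Cmpk2 in neutrophils of negative liver sample 1 (16.6 CPM). In the IIA bone samples over all cells they were Irf9 in negative sample 6 (89.2) and positive sample 6 (49.97), and Oas1a in positive sample 2 (33.4).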

How the results depend on the processing

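Counts here are of members called, without the shares of all genes at these settings. With the replicate block they were 1 in brain and 5 in lung over all cells, 21 in neutrophils, 2 in monocytes and 1 in T cells between tissues, 20 in bone against the other tissues, and 23 in IIA bone; the block moved no other count. DESeq2 called 1 in bone, 4 in brain and 2 in lung over all cells. Leaving out high Scrublet scores gave 1 in brain. With no filter on low counts there was 1 in B cells of lung, 1 in B cells between tissues, 3 in IIA neutrophils and 1 in IIA monocytes. Neutrophils between tissues gave 6 with clusters made with the members, 0 in the G0s2 and Wfdc17 cluster alone (2 with the block) and 0 in the Retnlg and Prok2 cluster alone (0 with the block); bone against the others gave 0 in each, with or without it. Leaving out 1 sample or number gave 12 to 19 in IIA bone, 0 to 4 in lung over all cells, 4 to 12 in neutrophils between tissues, 4 to 10 for bone against the others, 13 to 24 between numbers in neutrophils and 25 to 30 in monocytes, and 0 to 0 elsewhere. Within the G0s2 and Wfdc17 cluster, bone against the others reversed for Gbp2 (log2 difference 0.10, with the block 0.025), Gbp7 (0.32, with the block 0.30) and Parp14 (0.013). Within the Retnlg and Prok2 cluster it reversed for Gbp2 (0.29, with the block 0.026), Gbp7 (0.36, with the block 0.14), Parp14 (0.70, with the block 0.54), Trim30a (0.15, with the block 0.029) and Oasl2 (0.28). Leaving out 1 bone sample, the sort difference of members that had not passed ran from -0.35 to 1.17 (Gbp2) and -1.55 to 1.52 (Gbp5) in monocytes, and from -0.70 to 2.12 (Gbp2) and -3.11 to 3.30 (Rsad2) in B cells, below 0 without positive sample 1. The share of cells with many member UMIs moved from 11.1% to 37.9% of neutrophils and from 34.1% to 73.6% of monocytes with thinning to 2000 UMIs, and to 32.9% and 63.4% with at least 3 UMIs. The causes were not tested. Depth limits members at a few CPM.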
